A study of Macaca fascicularis with 16 samples.

Results

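The nuclear genes for subunits of the oxidative phosphorylation complexes were followed across 4 regions of the aorta of normal young cynomolgus monkeys (Macaca fascicularis). Members were taken by symbol: genes named for NADH dehydrogenase subunits (NDUFA, NDUFB, NDUFC, NDUFS, NDUFV), the 4 succinate dehydrogenase genes (SDHA to SDHD), the UQCR genes of the cytochrome bc1 complex, 9 genes of cytochrome c oxidase and the ATP5F1, ATP5M and ATP5P genes of ATP synthase. Assembly factors (NDUFAF) and NDUFA4L2 were left out. The reference annotation held 76 such symbols. Of these, 74 had a row among the 32846 rows of the count table, and all 74 were among the 15926 genes that passed the filter on low counts. ATP5MC2, a gene for the c-ring subunit, and ATP5ME, the gene for subunit e, had no row under a GeneID that the reference pairs with them and were not analysed here. By complex the members were 37 of complex I (16 of the peripheral arm that takes electrons from NADH and passes them to ubiquinone, 21 of the proton-pumping membrane arm), 4 of complex II, 8 of complex III, 10 of complex IV and 15 of complex V. NDUFA4, named for complex I, was counted with complex IV, of which its protein is a subunit.

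Oxidative phosphorylation moves electrons from NADH through complex I, and from succinate through complex II, to ubiquinone, then through complex III to cytochrome c and through complex IV to oxygen. The proton gradient built by complexes I, III and IV drives ATP synthase, complex V. All complexes but II combine subunits encoded in mitochondrial DNA with the nuclear ones, which are translated on cytosolic ribosomes and imported. Complex II is wholly nuclear and also works in the citric acid cycle. In arterial smooth muscle, glycolysis and oxidative phosphorylation both supply ATP. The subunits encoded in mitochondrial DNA were not analysed here.

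RNA was sequenced from 16 libraries, 4 each of ascending, descending, suprarenal and infrarenal aorta, all from normal animals labelled as baseline. Each library started from 1 ug of total RNA of aortic tissue. Nothing in the sources gives the animals' exact ages, sex or number. Since no label ties the 4 libraries of a region to 4 separate animals, each p-value rests on variation from library to library, which may be technical. Library totals ran from 14.4 to 21.41 in units of 1e6 counts.

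Smooth muscle markers were present in all 16 libraries. MYH11, the myosin heavy chain of smooth muscle, ran from 2950 to 14100 normalized CPM (counts per 1e6, with TMM factors), and TAGLN, an actin-binding protein, from 3620 to 22900 CPM. Infrarenal replicate 1 stood apart. It had a TMM factor of 0.736, while those of the other libraries ran from 0.977 to 1.08, and 85 cytosolic ribosomal protein genes summed to 112000 CPM in it and to 34500 to 52400 CPM elsewhere. Ascending replicate 1 held heart muscle markers. TNNI3, cardiac troponin I, was at 74.9 CPM there and at most at 0.483 CPM in the other 15. UCP1, the defining marker of brown fat, was at 43.3 and 41.0 CPM in descending replicates 1 and 3, at 12.3 CPM in suprarenal replicate 4 and at 0 in 8 libraries. In bulk tissue, fewer cells of a type and less RNA per cell cannot be told apart.

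With all 16 libraries, none of the 74 subunit genes differed between regions by the quasi-likelihood test of edgeR at a Benjamini-Hochberg adjusted p under 0.05. For any difference among the 4 regions 0 of 74 members were called, against 2.02% of all genes tested, and 1 member (1.4%, against 9.6% of all genes) had an unadjusted p under 0.05. NDUFA2, an accessory subunit of complex I, was that member (adjusted p = 0.438). DESeq2 called 0 members in this test, against 5.18% of all genes. Limma voom also called 0, against 1.64% of all genes without and 5.8% with sample quality weights.

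Most members had higher fitted levels in the infrarenal region, and that direction rested on 1 library, infrarenal replicate 1. Against the mean of the other 3 regions, 70 of 74 members had a positive log2 difference, with a median of 0.40 against 0.03 over all genes. Again 0 members were called by edgeR, against 2.98% of all genes, and 23 (31.1%, against 13.7% of all genes) had an unadjusted p under 0.05. DESeq2 called 1 of 74, NDUFA2 (adjusted p = 0.0476), against 5.35% of all genes. Limma voom called 0, against 2.49% of all genes without and 7.2% with quality weights. NDUFA2 gave a log2 difference of 0.77 (SE 0.23, adjusted p = 0.107) in edgeR, the lowest adjusted p among the members. Without infrarenal replicate 1 the median was -0.08, with 56 of 74 members negative, 0 called against 3.38% of all genes, and 6 (8.1%, against 14.2%) at an unadjusted p under 0.05.

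In the share of all counts, the members took 0.984% of infrarenal replicate 1 and 0.533%, 0.574% and 0.468% of infrarenal replicates 2 to 4. They took 0.530% to 0.617% of the ascending libraries, 0.512% to 0.595% of the descending and 0.477% to 0.533% of the suprarenal. The infrarenal replicate 1 share was the highest of the 16, and the other 15 lay within 0.468% to 0.617%.

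A score per library was formed as the mean over the 74 members of log2 CPM, each gene centred on its mean in the 15 libraries other than infrarenal replicate 1. That score was 1.24 in infrarenal replicate 1 and 0.02, 0.05 and -0.28 in infrarenal replicates 2 to 4. In ascending replicates 1 to 4 it was 0.20, 0.13, 0.00 and 0.11. Descending replicates 1 to 4 stood at 0.13, 0.00, 0.04 and -0.09. Suprarenal replicates 1 to 4 stood at -0.01, 0.01, -0.08 and -0.22. The range of the other 15 libraries, from -0.28 to 0.20, was smaller than the step from their highest to infrarenal replicate 1. Apart from that library the ranges of the 4 regions overlapped, those of the ascending and suprarenal regions only between 0.00 and 0.01.

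**Figure D1:**
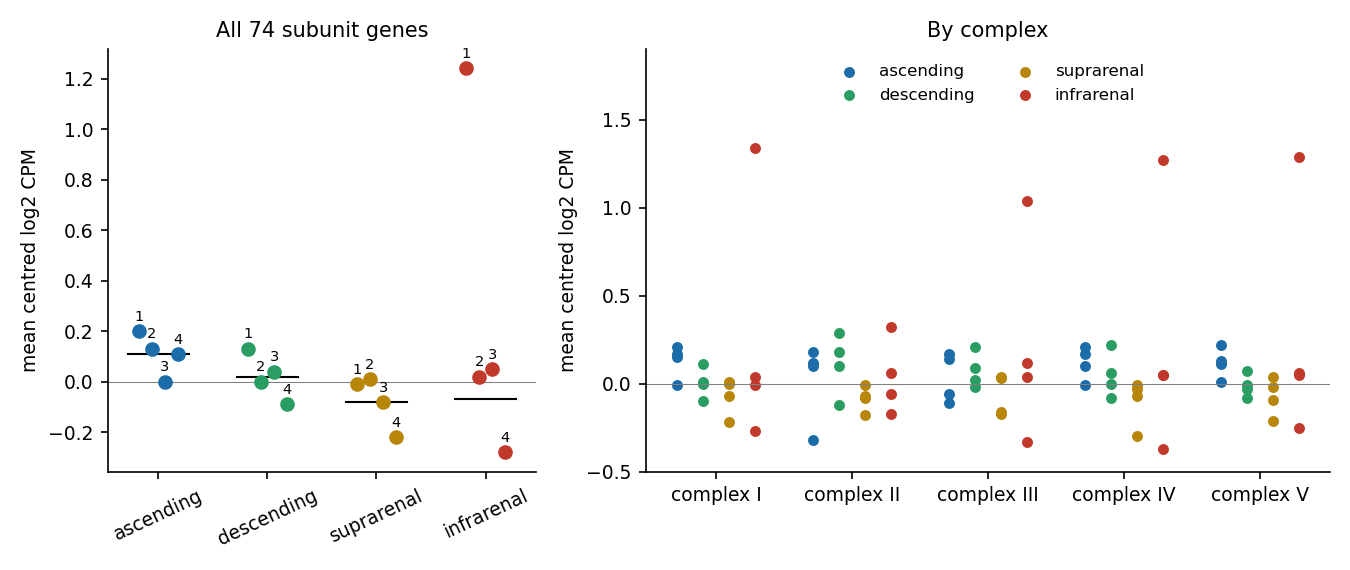
Mean centred log2 CPM of the 74 subunit genes in each library by region (left, numbered by replicate) and of each complex (right). Black lines are region means, drawn without infrarenal replicate 1, which sits at 1.24 while the other 15 libraries lie between -0.28 and 0.20. Complex II is the only complex in which that library, at 0.32, is close to the rest.

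Infrarenal replicate 1 was set against the mean of infrarenal replicates 2 to 4, gene by gene, as a description with no test, since it is 1 library. Of 74 members, 70 were higher in it, with a median log2 difference of 1.39 and a range from -0.74 to 2.30. A difference over 1 was seen for 56 members (75.7%) and for 17.4% of all genes, whose median was -0.09. Infrarenal replicate 1 was the highest of all 16 libraries for 66 of 74 members, against 25.7% of all genes. Scaled by library totals alone, the members' median was 0.90 and that of all genes -0.56, so the gap between them, 1.46, was close to the 1.48 under TMM. On that scale 64 of 74 members were higher, and ATP5MC3, NDUFB5, SDHA, SDHC and UQCRFS1 were among the members that changed sign.

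**Figure D2:**
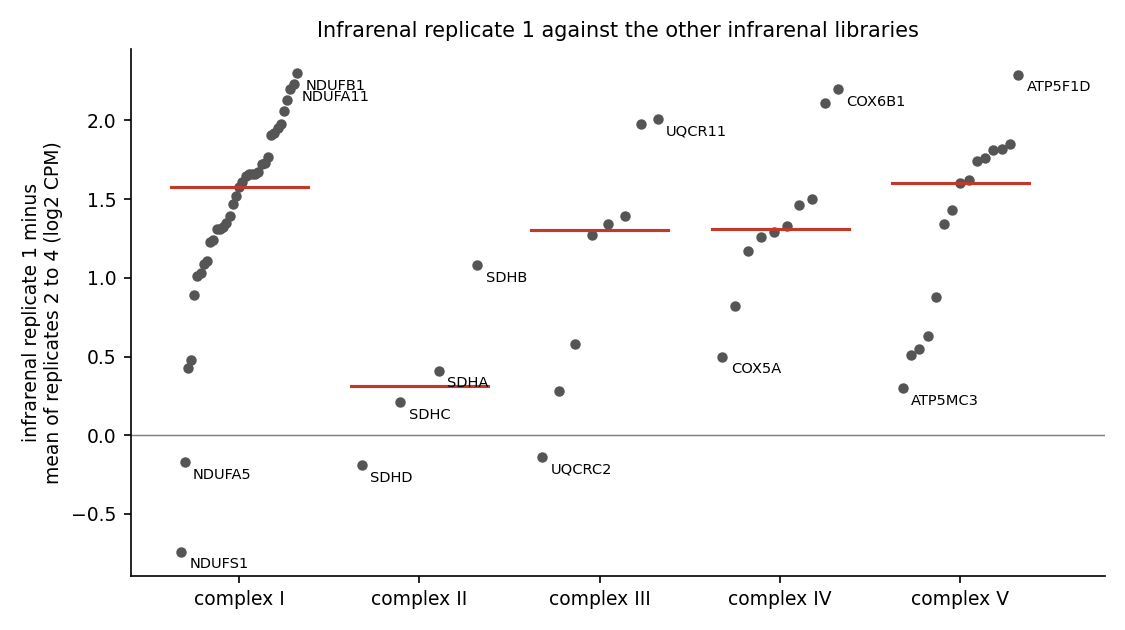
Log2 CPM in infrarenal replicate 1 minus the mean of infrarenal replicates 2 to 4, 1 point for each of the 74 subunit genes, ordered within each complex, with the median of each complex in red. Complexes I, III, IV and V have medians from 1.31 to 1.6 and complex II 0.31. NDUFS1, NDUFA5, SDHD and UQCRC2 lie below 0.

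Complex I had the widest span. Its 37 members had a median difference of 1.58 in infrarenal replicate 1, and 35 of 37 were at their highest there. The median was 1.5 for the peripheral arm and 1.66 for the membrane arm. NDUFB1, a small accessory subunit of the membrane arm, was at 200 CPM in infrarenal replicate 1 and at 49.3, 47.9 and 27.8 CPM in replicates 2 to 4, a log2 difference of 2.30 that was the largest of all members. NDUFA11, another membrane arm accessory subunit, was at 592 CPM there and at 139, 133 and 108 CPM in the others. For both genes infrarenal replicate 1 lay far above all 15 other libraries. NDUFB7 gave 327 CPM against 69.8, 73.7 and 69.4 CPM, and NDUFB8 gave 261 CPM against 118, 105 and 92.6 CPM.

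NDUFS1, the largest iron-sulfur subunit of the peripheral arm, went the other way. It was at 16.7 CPM in infrarenal replicate 1 and at 28.8, 26.9 and 28.1 CPM in replicates 2 to 4. In the ascending region it gave 26.9, 31.1, 30.4 and 13.4 CPM, in the descending 46.3, 34.7, 39.3 and 29.4 CPM, and in the suprarenal 29.6, 22.4, 18.1 and 28.7 CPM. Only ascending replicate 4 was lower than infrarenal replicate 1. NDUFA5, an accessory subunit of the same arm, was at 77.7 CPM in infrarenal replicate 1 against 92.6, 84.7 and 85.0 CPM.

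Complex II moved least. SDHA, the FAD-binding catalytic subunit, was at 22.1 CPM in infrarenal replicate 1 and at 15.5, 17.9 and 16.6 CPM in replicates 2 to 4. SDHC and SDHD, the membrane anchors, were at 20.6 and 57.0 CPM there. In replicates 2 to 4 SDHC was at 15.5, 25.4 and 14.3 CPM and SDHD at 70.3, 62.3 and 62.6 CPM, so SDHC lay inside its range and SDHD below it. SDHB, the iron-sulfur subunit, was the exception, at 85.4 CPM against 45.5, 37.9 and 38 CPM. It alone of the 4 was at its highest of 16 libraries there.

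In complex III, 6 of 8 members were at their highest in infrarenal replicate 1. UQCRC1, core protein 1, was at 222 CPM there and at 83.8, 87.2 and 92.4 CPM in replicates 2 to 4. UQCRC2, core protein 2, which pairs with it in the complex, was at 125 CPM against 141, 134 and 137 CPM. The values of the 2 core proteins therefore lay on opposite sides of the other infrarenal libraries. UQCR11, a small subunit, was at 247 CPM against 60.9, 71.9 and 52.2 CPM, and UQCRB at 196 CPM against 84.8, 78.6 and 63 CPM. UQCRFS1, the Rieske iron-sulfur protein, gave 55.9 CPM against 51.3, 43.3 and 43.6 CPM and was higher still in descending replicate 1, at 70.5 CPM.

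Complex IV members had a median difference of 1.31, and 9 of 10 were at their highest in infrarenal replicate 1. COX5B, a zinc-binding subunit, was at 176 CPM against 69.2, 78.6 and 68.3 CPM. COX7C was at 427 CPM against 169, 153 and 143 CPM, and COX6C at 403 CPM against 181, 141 and 113 CPM. NDUFA4 was at 66.7 CPM against 54.2, 42.4 and 23.5 CPM, the smallest difference of this complex after COX5A. COX5A was the member that was higher elsewhere, at 18.6 CPM in descending replicate 1 and 16.7 CPM in infrarenal replicate 1.

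In complex V all 15 members were at their highest in infrarenal replicate 1, with a median difference of 1.6. Within the F1 head the subunits were unequal. ATP5F1A and ATP5F1B, the alpha and catalytic beta subunits, differed by 0.51 and 0.55 (509 CPM against 363, 370 and 339, and 372 CPM against 230, 275 and 257). ATP5F1D, the delta subunit of the shaft, differed by 2.29, at 450 CPM against 85.1, 109 and 84.1 CPM. Of the 2 c-ring genes with a row, ATP5MC1 was at 127 CPM against 35.3, 36.3 and 34.0 CPM and ATP5MC3 at 96.1 CPM against 80.8, 76.5 and 76.8 CPM. The 2 genes for the same protein subunit thus differed by 1.85 and 0.30.

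Genes with a short genomic span had the larger differences. The 41 members spanning under 10 kb in the reference had a median of 1.65 in infrarenal replicate 1 and the 33 of 10 kb and over 1.09. Spearman's rho between that difference and the span was -0.42 over the 74 members and also -0.42 over 14661 genes with a symbol, all read in the same 4 libraries. The span includes introns and is no transcript length. Of 20 tested genes with very long transcripts, such as those of giant cytoskeletal proteins, 1 was higher in infrarenal replicate 1, and the list summed to 3550 CPM there and to 4510 to 7320 CPM in the other 15 libraries. The part of transcript length or RNA quality in the members' levels was not tested.

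**Figure D3:**
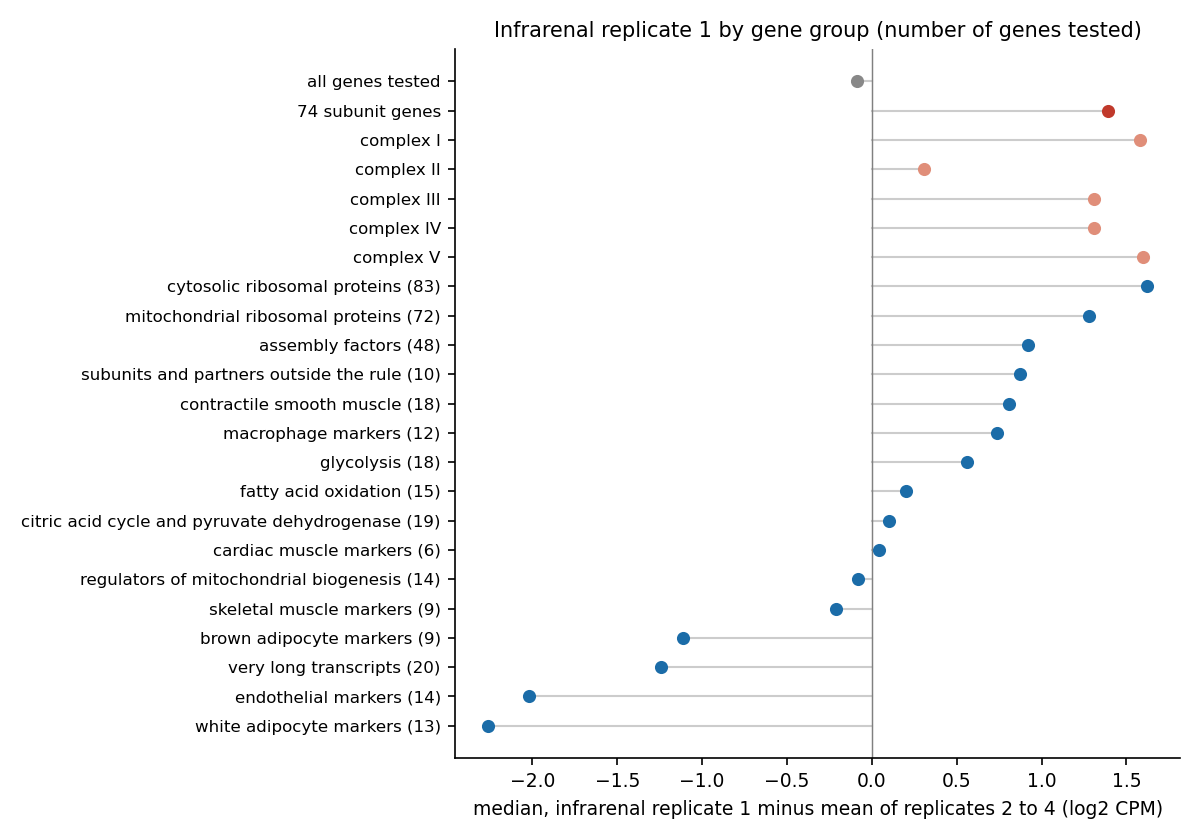
Median log2 CPM of infrarenal replicate 1 minus the mean of infrarenal replicates 2 to 4 for the 74 subunit genes, each complex and other gene lists, with the number of genes tested. Cytosolic (1.62) and mitochondrial (1.28) ribosomal proteins lie near the subunits (1.39). Very long transcripts, endothelial and white adipocyte markers lie below -1.

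Other gene groups of the mitochondrion divided in the same library. The 72 mitochondrial ribosomal protein genes had a median difference of 1.28 (68 of 72 positive) and 48 assembly factors of the complexes 0.92 (43 of 48). Of 10 tested genes for subunits and partners outside the rule, all were positive (median 0.87): COX7A2, the ubiquitous form of a complex IV subunit, was at 177 CPM against 65.1, 58.6 and 39.6 CPM. In contrast, 19 genes of the citric acid cycle and pyruvate dehydrogenase had a median of 0.10 (10 of 19 positive), 15 of fatty acid oxidation 0.20 (8 of 15) and 14 regulators of mitochondrial biogenesis -0.08 (7 of 14). TFAM, which packages mitochondrial DNA and activates its transcription, was at 2.31 CPM against 15.2, 11.3 and 14.9 CPM. ESRRA went the other way, at 62.6 CPM against 30.8, 48.5 and 38.7 CPM. CS, citrate synthase, was at 111 CPM against 118, 174 and 129 CPM. The 24 rows of mitochondrial RNAs summed to 348.5 counts per 1e6 counts of the library total in infrarenal replicate 1 and to 544.7, 1088.9 and 476.0 in replicates 2 to 4. Descending replicate 4 was lower than all of these, at 294.7. These sums are per library total and carry no TMM factor, unlike the CPM of the genes above. With its TMM factor of 0.736, infrarenal replicate 1 would stand higher against the other libraries, so its place below replicates 2 to 4 depends on the scale.

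Marker lists of cells were read in infrarenal replicate 1 in the same way. Of 18 contractile smooth muscle genes, 13 were higher, 11 at their highest of 16 libraries, and the list summed to 140000 CPM there against 30800 to 62600 CPM in the other 15. The genes were unequal. MYL9 was at 38500 CPM against 9480, 8830 and 7390 CPM in replicates 2 to 4. MYH11, at 6710 CPM, lay inside the range of those replicates (7490, 5680 and 7580 CPM). White adipocyte markers (1 of 13 positive, median -2.26), endothelial markers (3 of 14, -2.02) and brown adipocyte markers (3 of 9, -1.11) were mostly lower, and macrophage markers higher (12 of 12, 0.74). UCP1 was at 0.154 CPM, and TNNI3 and MYH6, heart muscle markers, at 0. The sums for brown adipocyte markers (227 CPM, others 80 to 351) and cardiac muscle markers (59.3 CPM, others 56.3 to 455) lay inside the range of the other libraries. So did those for white adipocyte (958 CPM, others 321 to 6910), endothelial (1140 CPM, others 572 to 4030) and macrophage markers (299 CPM, others 124 to 372). The part of smooth muscle content was not tested.

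The 3 marker genes of the group show how single members read by region. NDUFA4 gave 44.9, 53.4, 58.7 and 54.0 CPM in ascending replicates 1 to 4, 63.4, 51.5, 52.8 and 51.9 CPM in the descending, 38.6, 36.7, 46.0 and 24.4 CPM in the suprarenal and 66.7, 54.2, 42.4 and 23.5 CPM in the infrarenal region. Replicate 3 was the only suprarenal library above the lowest ascending one. The mean was 54.9 ± 5.69 CPM (SD, n = 4) in the descending, 52.7 ± 5.75 in the ascending, 46.7 ± 18.4 in the infrarenal and 36.4 ± 8.97 in the suprarenal region. The suprarenal difference from the descending region (log2 -0.59, SE 0.25, adjusted p = 1.0 in edgeR) and from the ascending (-0.53, SE 0.25, adjusted p = 0.914) did not pass, and neighbours in that order were not told apart.

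UQCRC1 gave 136, 113, 109 and 112 CPM in the ascending, 115, 93.7, 106 and 108 CPM in the descending and 105, 107, 86.0 and 93.2 CPM in the suprarenal libraries. Its infrarenal mean was 121 ± 67.1 CPM (SD, n = 4) with all libraries and 87.8 ± 4.31 CPM (n = 3) without replicate 1, so the region had the highest mean of the 4 with that library and the lowest without it. Infrarenal minus ascending was 0.04 (SE 0.25, adjusted p = 0.977) with all 16 libraries and -0.42 (SE 0.12, adjusted p = 0.0504) without it, both in edgeR.

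COX5B gave 79.5, 76.8, 71.7 and 89.5 CPM in the ascending, 81.5, 73.2, 77.0 and 72.1 CPM in the descending and 69.6, 74.2, 82.6 and 63.5 CPM in the suprarenal libraries, so these 3 regions overlapped. Its infrarenal mean was 98.0 ± 52.2 CPM (SD, n = 4) and, without replicate 1, 72.0 ± 5.74 CPM (n = 3). Its infrarenal minus ascending difference was 0.30 (SE 0.24, adjusted p = 0.742) and -0.14 (SE 0.11, adjusted p = 0.486) in turn.

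**Figure D4:**
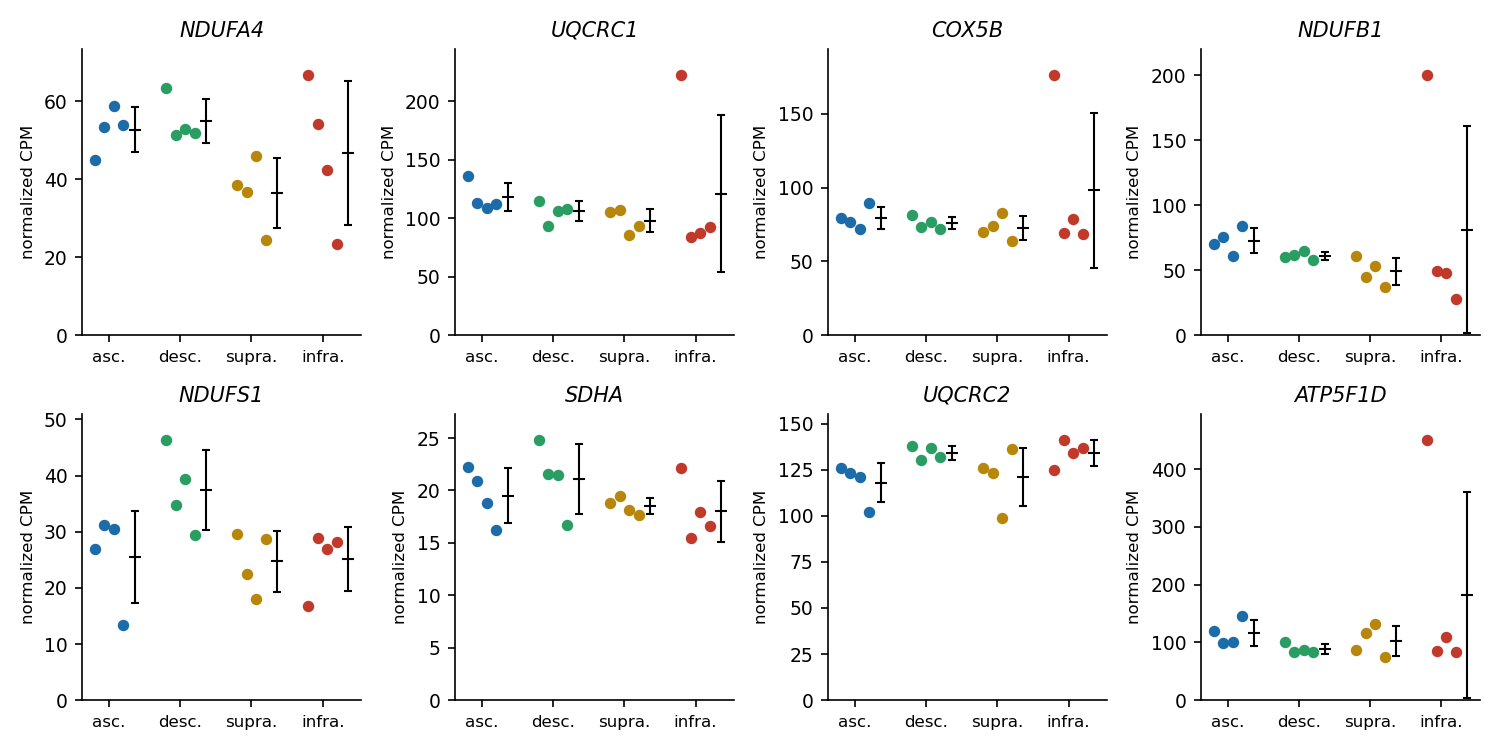
Normalized CPM (TMM) of 8 subunit genes in each library by region, with the mean and SD of the 4 libraries in black. Infrarenal replicate 1 is the leftmost infrarenal point: far above the rest for UQCRC1, COX5B, NDUFB1 and ATP5F1D, inside or below the other regions for NDUFS1, SDHA and UQCRC2.

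The 6 pairs of regions share libraries with each other. With all 16 libraries, edgeR called 0 of 74 members in infrarenal minus suprarenal (0.201% of all genes), infrarenal minus descending (1.65%), infrarenal minus ascending (3.49%), suprarenal minus descending (0.0%), suprarenal minus ascending (0.257%) and descending minus ascending (0.113%). At an unadjusted p under 0.05 there were 17, 12, 2, 3, 0 and 2 members in that order, which is 23.0%, 16.2%, 2.7%, 4.1%, 0.0% and 2.7% of the group. The same shares over all genes were 5.8%, 13.8%, 12.7%, 1.7%, 5.5% and 6.7%. The members thus lay well above the background only in infrarenal minus suprarenal. They were near it in infrarenal minus descending and, with only 3 members, in suprarenal minus descending, and below it in the other 3. DESeq2 called 0 in each of the 6, against 1.05%, 3.92%, 6.3%, 0.0%, 1.16% and 1.11% of all genes. Limma voom also called 0, against 0.0942%, 1.52%, 3.25%, 0.0%, 0.264% and 0.0565%. With sample quality weights, voom called 2 in infrarenal minus ascending, NDUFB1 and UQCRC1, both lower in the infrarenal region. That is 2.7% of the members, below the 10.9% of all genes called there. In the other 5 pairs it called 0, against 0.59%, 4.43%, 0.0%, 0.647% and 0.904% of all genes. The members' median was 0.50, 0.43 and 0.31 in the 3 infrarenal pairs, with 73, 63 and 70 of 74 positive. Without infrarenal replicate 1 these medians were 0.00, -0.07 and -0.20, with 39, 24 and 14 positive.

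**Figure D5:**
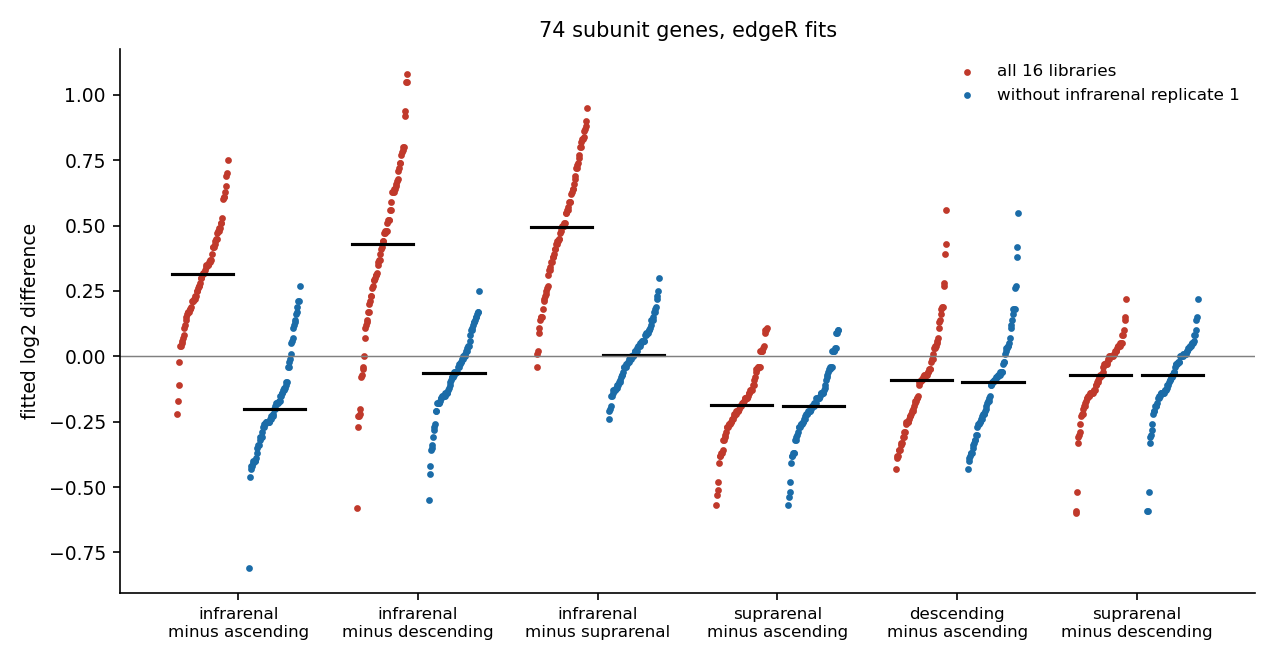
Fitted log2 differences of the 74 subunit genes in the 6 pairs of regions, ordered by value, with all 16 libraries (red) and without infrarenal replicate 1 (blue). Black lines are medians. The 3 infrarenal pairs shift from medians of 0.31 to 0.50 down to -0.20 to 0.00, and the other 3 pairs stay within 0.01 of their value.

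In the 15 other libraries the members typically varied less than all genes did, a background that was not matched for level. The SD between libraries of a region had a median of 0.18 on the log2 scale over the members and 0.34 over all genes. The peripheral stalk subunit ATP5PO (0.10) and the complex I subunits NDUFA8 and NDUFB9 (both 0.10) were among those that varied least. NDUFA3 (0.54) and UQCR10 (0.45), the members with the fewest counts at 4.26 and 4.29 CPM, varied most, followed by NDUFS1 (0.37), SDHC (0.36) and NDUFA4 (0.35).

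Within these libraries the ascending region most often had the highest mean. It was highest for 51 of 74 members (68.9%), against 32.5% of all genes, the descending for 14, the infrarenal for 7 and the suprarenal for 2. Over all genes the descending, infrarenal and suprarenal regions were highest for 24.9%, 30.8% and 11.9%. The lowest mean was infrarenal for 33 members (44.6%, against 29.9% of all genes), suprarenal for 23 (31.1%, against 12%), ascending for 9 (12.2%, against 34.3%) and descending for 9 (12.2%, against 23.8%). The infrarenal libraries were unequal here, with member scores of 0.02, 0.05 and -0.28 in replicates 2 to 4. Infrarenal replicate 4 alone was the lowest of the 15 libraries for 30 members. With library totals the ascending count was again 51 and the lowest means were 28 infrarenal and 28 suprarenal. The differences were small. The members' median in suprarenal minus ascending was -0.19, with 64 of 74 negative, and in descending minus ascending -0.10, with 54 negative.

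Without infrarenal replicate 1, edgeR called 0 of 74 members for any difference among regions (2.94% of all genes), infrarenal minus suprarenal (0.154%), infrarenal minus descending (1.63%), suprarenal minus descending (0.0%), suprarenal minus ascending (0.352%) and descending minus ascending (0.21%). At an unadjusted p under 0.05 there were 14, 0, 5, 4, 17 and 17 members, which is 18.9%, 0.0%, 6.8%, 5.4%, 23.0% and 23.0% of the group. The shares over all genes were 14.7%, 6.5%, 11.2%, 3.2%, 9.3% and 15%. The members thus lay below the background in infrarenal minus suprarenal and infrarenal minus descending. They lay above it in the other 4 tests listed here, in suprarenal minus descending with only 4 members. Infrarenal minus ascending is not among these tests and is given below. DESeq2 without that library, added after the data were seen, called 4, 0, 1, 0, 1 and 1 members in the same order, or 5.4%, 0.0%, 1.4%, 0.0%, 1.4% and 1.4%. Over all genes it called 7.96%, 1.43%, 3.84%, 0.0%, 1.93% and 2.61%, so in none of these was the members' share above the background. NDUFS6, a zinc-binding subunit of complex I, was its call in suprarenal minus ascending (adjusted p = 0.0223) and had the lowest adjusted p of edgeR there (-0.37, SE 0.10, adjusted p = 0.167).

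In infrarenal minus ascending 1 of 74 members was called without infrarenal replicate 1, against 6.18% of all genes, so the share of members was below the background. NDUFB1 was that member, lower in the infrarenal region by edgeR (log2 -0.81, SE 0.20, adjusted p = 0.0263). Its ascending libraries were at 70.5, 75.7, 61.0 and 84.1 CPM, the descending at 60.1, 61.8, 64.7 and 57.6 CPM, and the suprarenal at 61.2, 44.7, 53.6 and 37.0 CPM. Infrarenal replicates 2 to 4, at 49.3, 47.9 and 27.8 CPM, lay below all ascending and descending libraries and overlapped the suprarenal. With ascending replicate 1, the library with heart muscle markers, also left out, the log2 difference was -0.82, nearly unchanged. The adjusted p of edgeR was then 0.0547, and 0 members were called. With descending replicate 1 left out in place of ascending replicate 1, the difference was -0.81 and the adjusted p 0.036. DESeq2 without infrarenal replicate 1 called 9 members (12.2%), close to the 10.8% of all genes. All 9 were lower in the infrarenal region: ATP5MF, NDUFA13, NDUFB1, NDUFB11, NDUFB4, NDUFB9, NDUFS5, NDUFV1 and UQCRC1.

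Infrarenal replicates 2 to 4 all lay below all 4 ascending libraries for 17 of 74 members, against 10.5% of all genes. Complex I gave 11 of these, the NADH-binding core subunit NDUFV1 among them, complex V 4 (ATP5F1E, ATP5MC1, ATP5MF and ATP5MJ), and complexes III and IV 1 each, UQCRC1 and COX6B1. They all lay above for 3 members, against 9.29% of all genes: the c-ring gene ATP5MC3, NDUFA5 and UQCRC2. ATP5MC3 gave 64.8, 75.5, 66.9 and 50.9 CPM in the ascending region and 80.8, 76.5 and 76.8 CPM in infrarenal replicates 2 to 4. UQCRC2 gave 126, 123, 121 and 102 CPM in the ascending region, against 141, 134 and 137 CPM.

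The ascending libraries did not share 1 profile. Ascending replicates 1 and 4 were each the highest of the 15 libraries for 20 of 74 members, and for different genes. Over all genes the shares were 7.9% and 13.0%. Replicate 1 was highest for, among others, UQCRC1, UQCRB, NDUFB8, NDUFV1 and ATP5PO. Besides its TNNI3 level, it alone had COX6A2, the heart and skeletal muscle form of a complex IV subunit, at 4.95 CPM, with the other 15 libraries at 0. Cardiac muscle markers summed to 455 CPM at most in the ascending region and to 175 CPM at most elsewhere. The part of heart muscle in the ascending levels was not tested. Without it and infrarenal replicate 1 the medians were -0.18 for infrarenal, -0.16 for suprarenal and -0.08 for descending minus ascending, with 55, 62 and 54 of 74 members negative.

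Ascending replicate 4 was highest for ATP5F1D (146 CPM), NDUFB1, NDUFA11, NDUFB7, COX6B1 and COX4I1 among others. These 20 members had a median difference of 1.92 in infrarenal replicate 1, and the 20 that were highest in ascending replicate 1 had 1.5. Ascending replicate 4 was also the lowest of 15 for NDUFS1 (13.4 CPM), SDHD (48.3 CPM), SDHB, UQCRFS1 and ATP5F1B. The very long transcripts had their lowest score of the 15 libraries there, -0.46, and the cytosolic ribosomal proteins their highest, 0.38. Contractile smooth muscle scored -0.53 and endothelial markers 1.1 there. Suprarenal replicate 3 had the lowest contractile score of the 15, -0.77, and the highest endothelial score, 1.95. The part of these in the values of the 2 libraries was not tested.

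Descending replicate 1 was the highest of 15 for 11 of 74 members, against 7.0% of all genes. They included the catalytic or core subunits ATP5F1A (455 CPM), ATP5F1B (343 CPM), NDUFS1 (46.3 CPM), NDUFV2, SDHA (24.8 CPM) and UQCRFS1 (70.5 CPM), besides NDUFA4, COX5A, NDUFV3, UQCR11 and UQCRH. Those 11 had a median difference of 0.55 in infrarenal replicate 1. Descending replicate 1 also had the highest scores of the 15 for white (3.14) and brown adipocyte markers (1.57), for fatty acid oxidation (0.56) and for the citric acid cycle (0.47). White adipocyte markers were not particular to it, with scores of 2.52 in infrarenal replicate 3 and 2.19 in suprarenal replicate 3. CS was at 213 CPM in it and at 104 to 174 CPM in the other 15. UCP1, at 43.3 CPM there, was nearly as high in descending replicate 3, where 2 members, SDHC and SDHD, were at their highest. The part of fat tissue in these levels was not tested. Without descending replicate 1 and infrarenal replicate 1 the median of descending minus ascending was -0.15, with 57 of 74 negative.

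At the low end, infrarenal replicate 4 was the lowest of 15 for 30 members (7.1% of all genes), suprarenal replicate 4 for 13 (5.3%) and suprarenal replicate 3 for 11 (12.8%). The 30 included NDUFA4 (23.5 CPM), NDUFB1 (27.8 CPM), COX6C (113 CPM) and COX7B (56.5 CPM). Cytosolic ribosomal proteins also had their lowest score of the 15 in infrarenal replicate 4, -0.26, and the very long transcripts their highest, 0.25. Complex IV had its lowest score there, -0.37, and complex V -0.25. The part of these in its values was not tested.

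Lists of very long transcripts, of ribosomal proteins and of markers of other cells also differed in infrarenal minus ascending without infrarenal replicate 1. Very long transcripts had a median of 0.34, with 4 of 20 called higher in the infrarenal region by edgeR (BIRC6, KMT2D, UTRN and VPS13D), and 83 cytosolic ribosomal protein genes -0.22, with 2 called lower. Endothelial markers had a median of 1.11 and white adipocyte markers of 2.87, with 0 of 14 and 0 of 13 called. Cardiac muscle markers had a median of -2.25, with 1 of 6 called lower (MYH6). The part of these in the members' differences was not tested.

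Other energy pathways were read beside the members in infrarenal minus ascending without infrarenal replicate 1. Of 18 glycolysis genes, 4 were called by edgeR, all lower in the infrarenal region (ENO1, GAPDH, PKM and the glucose transporter SLC2A1), with a list median of -0.42. With all 16 libraries 1 of 18, SLC2A1, was called and the median was -0.18. None of 48 assembly factors (median -0.21), 19 citric acid cycle genes (0.07), 15 fatty acid oxidation genes (-0.04) or 14 regulators of biogenesis (0.01) was called. The regulators' scores ran from -0.21 to 0.26 over the 15 libraries. PPARGC1A, a coactivator of mitochondrial biogenesis, was at 0.231 to 2.75 CPM over all 16 libraries.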

How the data were processed

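RNA-seq of 16 aortic libraries, 4 in each of 4 regions, was analysed from the deposited gene counts. The authors made these whole-number counts with fastp, HISAT2 2.0.5 and featureCounts 1.5.0-p3, per the submitters' processing notes. The genome build is not given in the sources used here, nor is the handling of reads that map to several places. Primate genomes hold processed copies of subunit genes, so reads may be split or shared among copies. Symbols were matched by GeneID to the RefSeq table of assembly T2T-MFA8v1.1, used for names and genomic span only. Of 32846 rows, 24609 (74.9%) had a symbol.

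Counts were analysed with edgeR 4.0.16 in R 4.3.3: TMM factors, a filter on low counts (filterByExpr, minimum count 10, minimum total 15), quasi-likelihood tests over all 16 libraries with region as the only term (12 residual degrees of freedom), and Benjamini-Hochberg adjustment over the 15926 genes that passed, with a threshold of 0.05. CPM are counts per 1e6 with TMM factors, and log2 CPM used a prior count of 2. The biological coefficient of variation was 0.382. No pair of libraries of a region agreed within counting noise (lowest chi-square per degree of freedom 27.5), so none was merged; this does not show that they come from separate animals. DESeq2 1.42.0, limma 3.58.1 (voom), other scalings and filters, a replicate block and leaving out libraries were alternatives, and the scripts were tested on simulated data. The 2-library omissions, and DESeq2 and the block without infrarenal replicate 1, were added after the data were seen.

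The members and gene lists were chosen with earlier results of these data known. Genes named by rule were the 3 markers, the SDH genes, per complex the members with the highest CPM or smallest p, any member called, and the extremes of infrarenal replicate 1. Other members were named after their values were seen.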

Additional observations from a re-analysis of the deposited data

Results flagged for a closer look

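In groups of 4 libraries, a value was picked out where its gap to the nearest other library took up nearly the whole range of the group (Dixon's rule at 95%). Of 128 groups tested, over the scores and the log2 CPM of the named subunit genes, 17 were picked out, 8 of them by infrarenal replicate 1. Chance picks out about 1 in 20 groups of genes chosen without regard to their values, and the groups share libraries. Some of the named genes were chosen for the deviation of infrarenal replicate 1 or for a small p in these data. That rate therefore does not hold here, and the count for infrarenal replicate 1 is a description only.

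Infrarenal replicate 1 was the high library for ATP5F1D (450 CPM), COX5B (176 CPM), COX7C (427 CPM), NDUFA11 (592 CPM), NDUFA2 (113 CPM), NDUFB7 (327 CPM) and UQCRC1 (222 CPM). It was the low library for NDUFS1, at 16.7 CPM.

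In the ascending region, replicate 3 was the low library for COX6C (142 CPM), COX7B (73.6 CPM) and NDUFA2 (26.8 CPM). Ascending replicate 4 was the low library for NDUFA5 (69.1 CPM), NDUFS1 (13.4 CPM) and the score of complex II (-0.32). Ascending replicate 1, which held heart muscle markers, was the high library for UQCRC1, at 136 CPM. In the descending region, replicate 1, where fat cell markers scored highest, was the high library for NDUFA4 (63.4 CPM). Descending replicate 4 was the low library for COX7B (58.2 CPM). No cause was tested for any of these values.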

How the results depend on the processing

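Leaving out infrarenal replicate 1, or weighting libraries by quality, changed the infrarenal results. Scaling by library totals lowered the members' medians to 0.21 for infrarenal minus the other regions (7 members at an unadjusted p under 0.05), 0.30 for suprarenal, 0.25 for descending and 0.12 for ascending. Voom gave 0.25 (2 members), 0.33, 0.24 and 0.16. The pooled SD against which moves were judged, 0.34, includes infrarenal replicate 1. DESeq2 called 1 member in infrarenal minus the other regions (NDUFA2, 0.80), and the cause was not tested. The length-trend alternative was not run, since no transcript lengths were at hand. Depth limits NDUFA3 and UQCR10 most.

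Members called in infrarenal minus ascending, 0 with all libraries, were 2 under voom with quality weights (10.9% of all genes called). They were 1 without infrarenal replicate 1 (6.18%) and 0 without each other single library (2.13% to 4.15%). They were 1 without infrarenal 1 and descending 1 (5.82%) and 0 without infrarenal 1 and ascending 1 (3.89%). Without infrarenal 1, ascending 4 and suprarenal 3 they were 5 (6.8%, against 13.2% of all genes). Under DESeq2 without infrarenal 1 they were 9 (12.2%, against 10.8%). DESeq2 without that library also called 4 for any difference, and 1 each in infrarenal minus descending, suprarenal minus ascending and descending minus ascending.

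In the order quality weights, without the 3 libraries, DESeq2 without infrarenal 1, without infrarenal 1 and ascending 1, and without infrarenal 1 and descending 1, the member medians were as follows. Infrarenal minus the other regions gave -0.05, -0.08, -0.08, -0.07 and -0.07, infrarenal minus suprarenal 0.03, 0.00, 0.00, 0.00 and 0.00, infrarenal minus descending -0.05, -0.07, -0.07, -0.07 and -0.03, and infrarenal minus ascending -0.16, -0.16, -0.19, -0.18 and -0.20.

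Single genes that changed sign are given in that same order. UQCRC1 gave -0.26, -0.31, -0.28, -0.25 and -0.27 against the other regions, -0.16, -0.22, -0.16, -0.16 and -0.16 against suprarenal, -0.21, -0.26, -0.26, -0.26 and -0.22 against descending, and -0.40, -0.44, -0.42, -0.35 and -0.42 against ascending. COX5B gave -0.02, -0.03, -0.07, -0.07 and -0.06 against the other regions, -0.04, -0.07, -0.07, -0.07 and -0.04 against descending, -0.08, -0.08, -0.14, -0.14 and -0.14 against ascending, and -0.01 in the last 3 settings against suprarenal. NDUFB1 gave -0.50, -0.49, -0.53, -0.54 and -0.53 against the other regions and -0.77, -0.73, -0.80, -0.82 and -0.81 against ascending. Against ascending, library totals gave -0.11 for NDUFB1 and -0.14 for UQCRC1, voom -0.28 and -0.08, and upper-quartile factors 0.00 for UQCRC1. Against the other regions voom gave -0.01 for NDUFB1, and RLE factors and DESeq2 gave 0.01 for NDUFA4. NDUFA4 in descending minus ascending gave -0.02 in each 2-library omission. The causes were not tested beyond what each omission shows.

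Leaving out 1 library at a time, the member medians ran from -0.08 to 0.60 for infrarenal minus the other regions, from 0.00 to 0.67 for suprarenal, from -0.07 to 0.61 for descending and from -0.20 to 0.47 for ascending. Each lowest value was without infrarenal replicate 1 and each highest without infrarenal replicate 4. In that order of comparisons UQCRC1 ran from -0.28 to 0.33, from -0.15 to 0.45, from -0.26 to 0.34 and from -0.42 to 0.18, and COX5B from -0.07 to 0.51, from -0.01 to 0.57, from -0.07 to 0.51 and from -0.14 to 0.44. NDUFB1 ran from -0.53 to 0.71 against the other regions and from -0.81 to 0.44 against ascending. NDUFA4 ran from -0.24 to 0.20 and from -0.40 to 0.05 in these, and from -0.02 to 0.11 in descending minus ascending.

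Libraries with the same replicate number correlated over 0.1 in 19 of 24 pairs (-0.17 to 0.57), and 15 of 16 libraries had their highest mean correlation with their own number, 14 of 16 their highest single one, a hint from the data and not the design. The member score of suprarenal minus ascending within numbers 1 to 4 was -0.21, -0.12, -0.08 and -0.33. For infrarenal minus ascending it was 1.04, -0.11, 0.05 and -0.39, and for descending minus ascending -0.07, -0.13, 0.04 and -0.20. With the number as a replicate block, 0 members were called in all 8 comparisons, against 0.0% to 5.29% of all genes. The member medians were 0.31, 0.39, 0.31 and 0.22 for infrarenal minus the other regions, suprarenal, descending and ascending. NDUFB1 gave -0.14 and UQCRC1 -0.04 against ascending under the block. With the replicate block and without infrarenal 1, 2 members were called in infrarenal minus ascending (8.9% of all genes), the 4 medians were -0.07, 0.04, -0.06 and -0.18, UQCRC1 gave -0.23, -0.10, -0.21 and -0.37 in the same order, COX5B -0.07 against the other regions and descending and -0.14 against ascending, and NDUFB1 -0.52 against the other regions and -0.81 against ascending.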
